A study of Mus musculus with 31 samples.

Results

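The genes described here encode the subunits of the 5 oxidative phosphorylation complexes of the mitochondrion, together with those complex I assembly factors and complex IV isoforms that share their names. They were taken by symbol, as every row whose mouse gene symbol began with *Nduf*, *Uqcr*, *Atp5* or *Cox4* to *Cox8*, or was *Sdha*, *Sdhb*, *Sdhc* or *Sdhd*. This gave 77 of the 17306 rows of the expression table, of which 70 were among the 9322 rows bright enough to be tested (above log2 4 in at least 10 tumors). The rule used symbols only, but it was set with earlier results of these data known. Subunits without a row under such a name were not analysed here.

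The study profiled 31 mouse neuroblastomas, tumors of the sympathetic nervous system, on Affymetrix arrays. All tumors carried the *TH-MYCN* transgene, in which the tyrosine hydroxylase promoter drives human *MYCN* in sympathoadrenal cells. In 11 tumors the mouse also had the F1178L mutation knocked into *Alk* (F1178L tumors), in 10 tumors it had R1279Q in *Alk* (R1279Q tumors), and 10 tumors had the transgene alone (MYCN tumors). The strain label of every tumor allows either 129S2 or 129B6F1, a cross with C57BL/6. The study lists one of these backgrounds by tumor number for 18 tumors. These are 6 F1178L tumors of 129B6F1 and 4 of 129S2 and, among R1279Q tumors, 3 of 129B6F1 and 5 of 129S2, whereas 1 F1178L tumor, 2 R1279Q tumors and all 10 MYCN tumors are without a listed background. Within each genotype the listed tumors of 129B6F1 came from older mice than those of 129S2. Whether tumors share a mouse is not given, and tumors of 1 mouse would make the p-values below too small.

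Oxidative phosphorylation makes most of the ATP of a resting cell. Complex I takes electrons from NADH and complex II takes them from succinate. They pass through ubiquinone, complex III and cytochrome c to oxygen at complex IV, and complex V, the ATP synthase, uses the proton gradient that builds up. Most subunits are encoded in the nucleus, and complex I needs a set of assembly factors that are not part of the finished enzyme. The values are log2 expression values, on which a difference of 1 is a doubling.

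The tumors expressed the sympathetic neuroblast markers, all 9 of which were among the tested rows. Some markers of neighbouring tissue were high in single tumors only. The fat gene *Cidea* was not among these, at 8.34 to 10.68 in MYCN tumors. It ran between 3.92 and 7.97 in F1178L tumors and between 3.32 and 10.33 in R1279Q tumors. MYCN tumor 22 had kidney transcripts, with *Umod* at 14.55, *Slc12a1* at 13.76 and *Slc34a1* at 9.31. In the other 30 tumors *Umod* did not exceed 3.49 and *Slc12a1* and *Slc34a1* did not exceed 2.28. The muscle creatine kinase gene *Ckm* exceeded log2 7 in F1178L tumors 11 and 38, R1279Q tumors 9 and 18 and MYCN tumors 3, 21 and 32. The brown fat gene *Ucp1* exceeded it in R1279Q tumor 18 and MYCN tumors 33 and 35. Counts without MYCN tumor 22, and without all 10 of these tumors (9 F1178L, 8 R1279Q and 4 MYCN tumors kept), are given beside the results. The 10 are called tumors with other tissue markers below. The 4 MYCN tumors kept still had *Cidea* at 8.97 to 10.35, above every F1178L tumor. Leaving out the 10 therefore did not remove the difference in *Cidea*. In such bulk samples, fewer cells of a type and less RNA per cell cannot be told apart.

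Few of the oxidative phosphorylation genes differed between the genotypes. Complex I assembly factors were the largest group among those called in F1178L against MYCN tumors, with 5 of 8 called. In F1178L against MYCN tumors, 12 of the 70 members passed the test (limma, Benjamini-Hochberg adjusted p under 0.05 over all 9322 rows), 2 higher and 10 lower. This is 17.1% of the members, against 46.5% of all rows tested (20.1% higher and 26.4% lower). Among rows with a mean above log2 10, where 56 of the members lie, 7 members (12.5%) were called, against 53.3% of all such rows. In R1279Q against MYCN tumors 5 members passed, 3 higher and 2 lower, against 17.9% of all rows (10.8% higher and 7.04% lower). In F1178L against R1279Q tumors 1 member passed and was lower, against 8.53% of all rows (2.83% higher and 5.7% lower). None was higher there, with 1 higher and 7 lower at an unadjusted limma p under 0.05. The first 2 comparisons share the MYCN tumors and are not independent.

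The differences were also small. The median log2 fold change of the members was -0.07 in F1178L against MYCN tumors, 0.04 in R1279Q against MYCN tumors and -0.08 in F1178L against R1279Q tumors, and the medians of all rows tested were -0.07, -0.01 and -0.06. The 95% confidence interval of the difference lay within 0.5 log2 units of 0 for 55 of 70 members in the first comparison (78.6%), 58 in the second and 63 in the third. For all rows this held for 29%, 37.5% and 41.7%. The spread between tumors of a group was narrower for the members as well, with a median SD of 0.23, against 0.38 for all rows. Among rows with a mean above log2 10 the median SD was 0.21 for the members and 0.27 for all such rows, and in F1178L against MYCN tumors the interval lay within 0.5 of 0 for 91.1% of the members and 43.5% of all such rows.

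**Figure D1:**
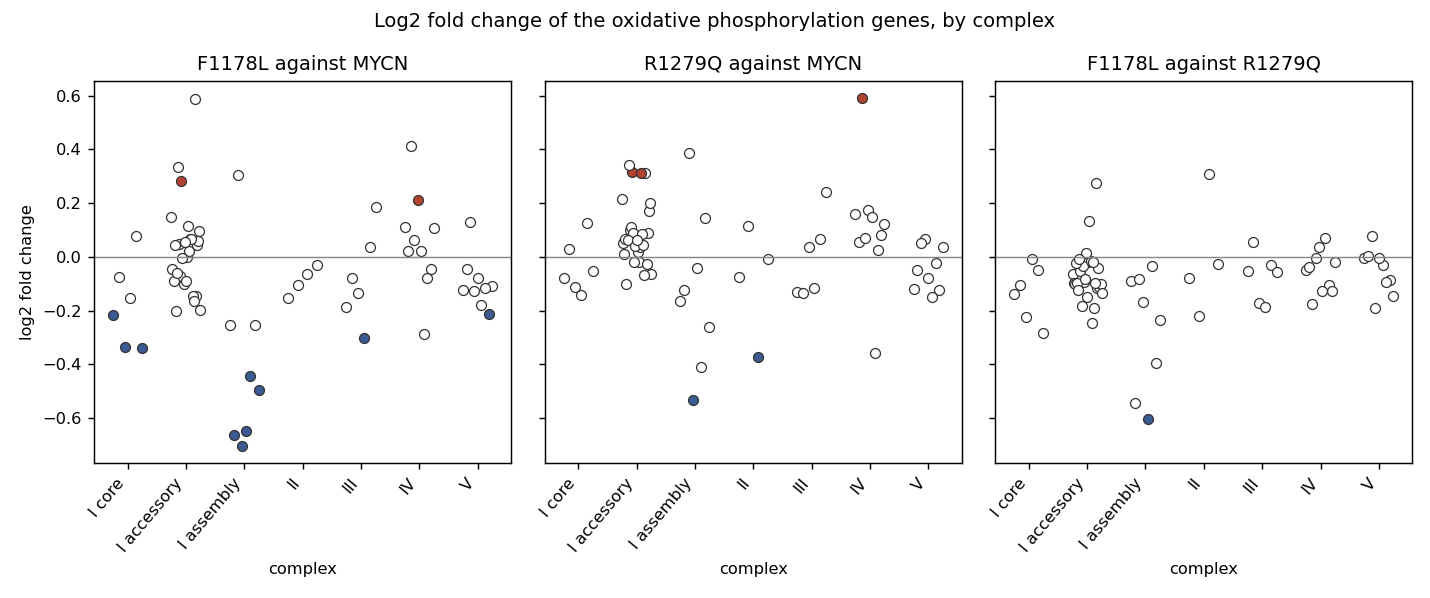
Log2 fold change (y axis) of each of the 70 tested members in the 3 comparisons, by complex (x axis). Filled points passed the test (red higher, blue lower) and open points did not. In F1178L against MYCN tumors 5 of 8 assembly factors are filled blue, with fold changes between -0.44 and -0.70, while most subunits lie near 0.

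The complex I assembly factors were the members with the largest falls. In F1178L against MYCN tumors 5 of the 8 were lower and none was higher, which is 62.5% called, against 46.5% of all rows (26.4% lower). The median log2 fold change was -0.47 over the 8 and -0.07 over all rows. At an unadjusted limma p under 0.05 the same counts were 5 lower and 1 higher. *Ndufaf5*, which hydroxylates a core subunit during assembly, had 6.26, 6.39 and 7.0 (lowest, median and highest) in F1178L tumors and 6.73, 7.13 and 7.51 in MYCN tumors. The groups overlapped only between 6.73 and 7.0. It fell by 0.65 (SE 0.12, limma adjusted p = 7.75e-05). *Ndufaf6*, needed for the early membrane part of the enzyme, had 7.62, 8.19 and 8.66 in F1178L tumors and 8.40, 8.93 and 9.19 in MYCN tumors. It fell by 0.70 (SE 0.13, limma adjusted p = 8.52e-05), and all MYCN tumors but number 26, at 8.40, stood above every F1178L tumor.

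*Ndufaf2*, a chaperone of a late step of assembly, had 8.21, 8.50 and 8.86 in F1178L tumors and 8.73, 9.0 and 9.41 in MYCN tumors, a fall of 0.50 (SE 0.12, limma adjusted p = 0.00123). *Ndufaf8*, a partner of *Ndufaf5* in human cells, had 7.58, 8.18 and 9.05 in F1178L tumors and 8.44, 8.91 and 9.37 in MYCN tumors, a fall of 0.66 (SE 0.18, limma adjusted p = 0.00372). *Ndufaf4* had 9.06, 9.46 and 9.72 in F1178L tumors and 9.55, 9.88 and 10.31 in MYCN tumors, a fall of 0.44 (SE 0.15, limma adjusted p = 0.0142). The ranges of all 3 genes overlapped between the groups. *Ndufaf1* and *Ndufaf3* did not pass the test, at -0.26 and -0.25, and *Ndufaf7*, a methyltransferase for a core subunit, was at 0.30 (adjusted p = 0.087).

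Each of the 5 calls was kept without any single tumor, MYCN tumor 22 included. Without all 10 tumors with *Ckm*, *Ucp1* or *Slc34a1* above log2 7, *Ndufaf2*, *Ndufaf5* and *Ndufaf6* kept the call, while *Ndufaf4* (-0.39, limma adjusted p = 0.197) and *Ndufaf8* (-0.54, limma adjusted p = 0.0865) did not. The MYCN tumors kept there still had *Cidea* above every F1178L tumor. With only the 6 F1178L tumors of 129B6F1 against the MYCN tumors, these 2 genes missed the threshold too (limma adjusted p = 0.0635 for *Ndufaf4* and 0.129 for *Ndufaf8*), and *Ndufaf2*, *Ndufaf5* and *Ndufaf6* were the only members called, against 23.7% of all rows. Markers of other cell types moved in this comparison too. Of the tested macrophage markers 6 of 7 were lower in F1178L tumors, and the mean log2 level of the macrophage list ran between 5.26 and 6.73 in F1178L tumors and between 6.45 and 8.01 in MYCN tumors. Of the tested endothelial and mural markers 4 of 5 were lower, with list levels of 3.76 to 4.67 in F1178L tumors and 4.41 to 6.21 in MYCN tumors. Of the fat markers *Cidea* and *Fabp4* were lower, 2 of 4 tested, with list levels of 3.91 to 8.52 in F1178L tumors and 5.97 to 10.46 in MYCN tumors. Of the Schwann cell markers 2 of 2 tested were higher in F1178L tumors, *Fabp7* by 4.34 on the log2 scale. The fibroblast gene *Dcn* (1 of 4 tested) was higher as well. The muscle gene *Actc1* was the 1 of 3 tested called higher, while the median log2 fold change of those 3 was -1.51. The erythroid gene *Alas2*, the only 1 tested of 5 listed, was lower by 3.30 on the log2 scale. Erythroid list levels ran between 2.12 and 7.91 in F1178L tumors and between 2.93 and 5.87 in MYCN tumors. Of the neuroblast markers 5 of 9 were higher. The part of all these cell type markers in the falls was not tested.

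**Figure D2:**
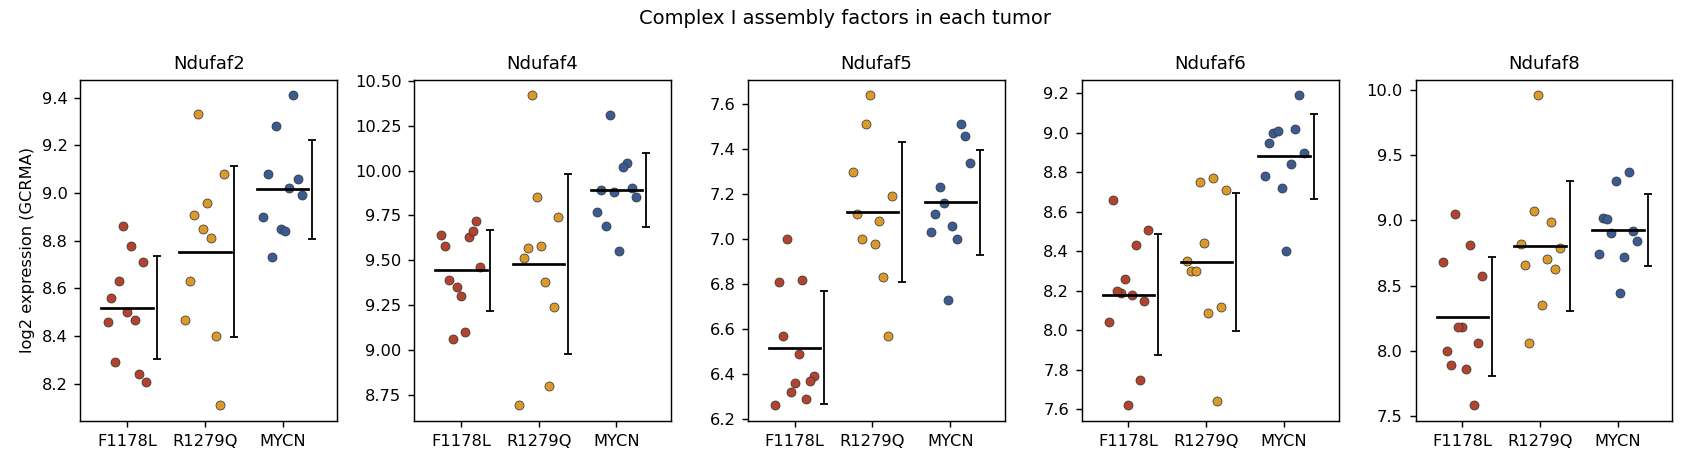
Log2 expression (y axis) of the 5 assembly factors that fell in F1178L against MYCN tumors, 1 point per tumor, in 11 F1178L, 10 R1279Q and 10 MYCN tumors (x axis). Lines are group means and bars 1 SD. *Ndufaf5* is low only in the F1178L group (mean 6.52, against 7.12 in R1279Q and 7.16 in MYCN tumors), whereas *Ndufaf6* is low in F1178L and R1279Q tumors.

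Promoters are shown for the assembly factors that fell in F1178L against MYCN tumors and for *Ndufa7* and *Cox6a1*, the members that rose there. Each is the 250 bases before the RefSeq start of the gene (GRCm38.p6), read 5′ to 3′ on the gene's strand. They are chr2:140170396-140170645 (plus strand) for *Ndufaf5*, chr11:120098684-120098933 (plus) for *Ndufaf8*, chr13:108158626-108158875 (minus) for *Ndufaf2*, chr4:24897833-24898082 (plus) for *Ndufaf4*, chr17:33824322-33824571 (plus) for *Ndufa7* and chr5:115348959-115349208 (minus) for *Cox6a1*. *Ndufaf6* is named only. Capitals mark exact matches, on either strand, to motifs of factors known to act on nuclear genes of the respiratory chain or on MYC targets.
Ndufaf5: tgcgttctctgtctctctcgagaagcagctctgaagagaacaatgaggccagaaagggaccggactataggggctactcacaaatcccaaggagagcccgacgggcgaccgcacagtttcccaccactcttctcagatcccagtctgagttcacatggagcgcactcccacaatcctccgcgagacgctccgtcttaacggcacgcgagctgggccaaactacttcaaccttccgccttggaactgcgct
Ndufaf8: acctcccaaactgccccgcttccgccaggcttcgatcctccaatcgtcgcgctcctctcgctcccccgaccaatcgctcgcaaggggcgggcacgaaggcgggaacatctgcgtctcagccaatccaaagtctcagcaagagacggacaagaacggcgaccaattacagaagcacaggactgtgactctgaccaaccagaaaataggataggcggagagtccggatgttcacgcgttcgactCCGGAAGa
Ndufaf2: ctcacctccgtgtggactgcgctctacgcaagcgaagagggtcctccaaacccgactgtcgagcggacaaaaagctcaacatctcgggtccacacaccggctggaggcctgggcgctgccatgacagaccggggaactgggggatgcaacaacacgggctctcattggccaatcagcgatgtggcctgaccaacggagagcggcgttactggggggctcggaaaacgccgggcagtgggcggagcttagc
Ndufaf4: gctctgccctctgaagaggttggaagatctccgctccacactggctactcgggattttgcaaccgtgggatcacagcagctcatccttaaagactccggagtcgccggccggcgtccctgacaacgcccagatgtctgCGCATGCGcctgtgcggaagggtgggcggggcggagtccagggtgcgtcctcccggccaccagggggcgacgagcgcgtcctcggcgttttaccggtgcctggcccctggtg
Ndufa7: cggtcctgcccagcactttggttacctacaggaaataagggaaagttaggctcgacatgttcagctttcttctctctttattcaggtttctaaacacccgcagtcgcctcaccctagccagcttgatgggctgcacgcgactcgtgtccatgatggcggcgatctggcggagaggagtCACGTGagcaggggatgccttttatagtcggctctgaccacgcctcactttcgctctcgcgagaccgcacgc
Cox6a1: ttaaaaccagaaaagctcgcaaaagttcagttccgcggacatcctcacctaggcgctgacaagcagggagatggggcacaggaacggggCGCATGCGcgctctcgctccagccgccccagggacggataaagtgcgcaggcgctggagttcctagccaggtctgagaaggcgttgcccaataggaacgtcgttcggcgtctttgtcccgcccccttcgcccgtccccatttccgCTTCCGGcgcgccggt
The motifs searched were CGCATGCG (the core of the NRF1 motif), CCGGAAG (the ETS family, GABPA among them), AAGATGGC (YY1) and CACGTG (the E-box of the MYC family), and no matches of different motifs overlapped in the members. A window was at hand for 61 of the 77 members. The NRF1 motif was in 5 of them (8.2%), against 1.58% of all 27025 genes with a window. The ETS motif was in 9 (14.8%), against 7.05% of all genes, and the E-box in 3 (4.92%), against 6.05%. The YY1 motif was in none of the 61 windows and in 1.59% of all genes. Among the 5 assembly factors that fell, *Ndufaf4* had the NRF1 motif and *Ndufaf8* the ETS motif, while the windows of *Ndufaf2* and *Ndufaf5* held none of the 4. *Cox6a1* had an NRF1 and an ETS match, and *Ndufa7* an E-box. A match is a description of the letters only.

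Of the 6 tested core subunits of complex I, which carry the flavin and the iron-sulfur clusters, 3 were lower in F1178L than in MYCN tumors. This is 50% called, near the 46.5% of all rows and the 53.3% of rows above log2 10. Of the 27 tested accessory subunits 1 (3.7%) was higher and none was lower (limma; at an unadjusted p under 0.05, 2 were higher and 2 lower). The difference between core and accessory subunits was not tested. *Ndufv2*, an iron-sulfur subunit, had 11.55, 11.88 and 12.39 in F1178L tumors and 12.04, 12.15 and 12.42 in MYCN tumors. It fell by 0.34 (SE 0.09, limma adjusted p = 0.00361) with overlapping ranges. *Ndufs7*, which holds the last iron-sulfur cluster before ubiquinone, had 10.39, 10.75 and 11.07 in F1178L tumors and 10.77, 11.09 and 11.34 in MYCN tumors, a fall of 0.34 (SE 0.10, limma adjusted p = 0.00769). *Ndufs1*, the largest core subunit, had 10.54, 10.72 and 10.99 in F1178L tumors and 10.73, 10.93 and 11.26 in MYCN tumors, a fall of 0.21 (SE 0.08, limma adjusted p = 0.0280). The call of *Ndufs1* was lost without F1178L tumor 31, MYCN tumor 21 or MYCN tumor 22, at adjusted p between 0.0504 and 0.0555, and with arrays set to equal medians (0.0747). Without the 10 tumors with other tissue markers none of the 3 was called, at -0.31 for *Ndufv2*, -0.22 for *Ndufs7* and -0.10 for *Ndufs1*.

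The core subunits *Ndufv1* and *Ndufs8* did not pass the test in any comparison. The F1178L against MYCN difference was 0.08 for *Ndufv1*, the NADH site (95% interval -0.12 to 0.28), and -0.15 for *Ndufs8* (-0.36 to 0.06). Among the accessory subunits *Ndufa7* was the one that rose, with 11.22, 11.57 and 11.97 in F1178L tumors and 10.94, 11.25 and 11.60 in MYCN tumors. Its difference was 0.28 (SE 0.09, limma adjusted p = 0.0134), and the ranges overlapped. *Ndufa11* was near the limit of detection in every tumor, between 3.93 and 4.14.

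In complex II, succinate dehydrogenase, none of the 4 subunits passed the limma test between F1178L and MYCN tumors, also at an unadjusted p under 0.05. The differences were -0.15 for the flavoprotein *Sdha* (95% interval -0.39 to 0.08), -0.03 for the iron-sulfur subunit *Sdhb* (-0.23 to 0.17), -0.07 for the membrane anchor *Sdhc* (-0.33 to 0.20) and -0.10 for the anchor *Sdhd* (-0.35 to 0.14). In complex III 1 of 6 was called. *Uqcrfs1*, the Rieske iron-sulfur protein, had 10.52, 11.30 and 11.72 in F1178L tumors and 11.22, 11.61 and 12.01 in MYCN tumors. It fell by 0.30 (SE 0.11, limma adjusted p = 0.0278), and the call was lost without F1178L tumor 1 or MYCN tumor 22 (highest adjusted p = 0.0570). Without the 10 tumors with other tissue markers it was at -0.13 (limma adjusted p = 0.558). The core proteins *Uqcrc1* and *Uqcrc2* were at -0.08 and -0.14 and did not pass.

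In complex IV, cytochrome c oxidase, 1 of 10 tested members passed. *Cox6a1* had 14.21, 14.58 and 14.72 in F1178L tumors and 14.12, 14.24 and 14.75 in MYCN tumors, a rise of 0.21 (SE 0.08, limma adjusted p = 0.0239). The MYCN tumor at 14.75 was number 22, above every F1178L tumor, and without it the difference was 0.26 (limma adjusted p = 0.00282). *Cox4i1* and *Cox5a*, 2 of the first subunits around the catalytic core, were at 0.11 (95% interval -0.05 to 0.27) and -0.08 (-0.24 to 0.08). *Ndufa4*, named for complex I but part of complex IV, was at 0.06. In complex V 1 of 9 passed. *Atp5b*, the catalytic beta subunit, had 13.35, 13.62 and 13.85 in F1178L tumors and 13.58, 13.74 and 14.17 in MYCN tumors, a fall of 0.21 (SE 0.08, limma adjusted p = 0.0346). Its call was lost when any 1 of 8 tumors was left out (F1178L tumors 29, 31, 37 and 38 and MYCN tumors 3, 22, 33 and 35), with a highest adjusted p of 0.0799, and with equal medians of the arrays (0.0952). Without the 10 tumors with other tissue markers it was at -0.06 (limma adjusted p = 0.675). *Atp5a1*, the other subunit of the catalytic head, was at -0.12 (-0.29 to 0.04) and *Atp5g3*, of the membrane ring, at -0.04.

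MYCN tumor 22 stood above the other MYCN tumors in the mean of the subunits of complexes I, II, III and V. The complex IV mean also takes in *Cox7a2l* and *Cox8b*, and there MYCN tumor 35 was higher, at 12.06 against 11.87. *Cox8b* was at 8.12 in MYCN tumor 35 and at 2.54 in MYCN tumor 22. The complex II mean of MYCN tumor 22 was 11.09, and the other MYCN tumors lay between 10.16 and 10.45. F1178L tumors had complex II means of 9.99 to 10.52 and R1279Q tumors of 10.06 to 10.39. In F1178L against MYCN tumors without that tumor, 6 members rose and 7 fell (49.4% of all rows called), where *Ndufa1*, *Ndufs5*, *Uqcrq* and *Cox4i1* joined the higher ones and *Atp5b*, *Ndufs1* and *Uqcrfs1* left the lower ones. Without all 10 tumors with other tissue markers 2 were higher and 3 lower, against 32.2% of all rows.

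**Figure D3:**
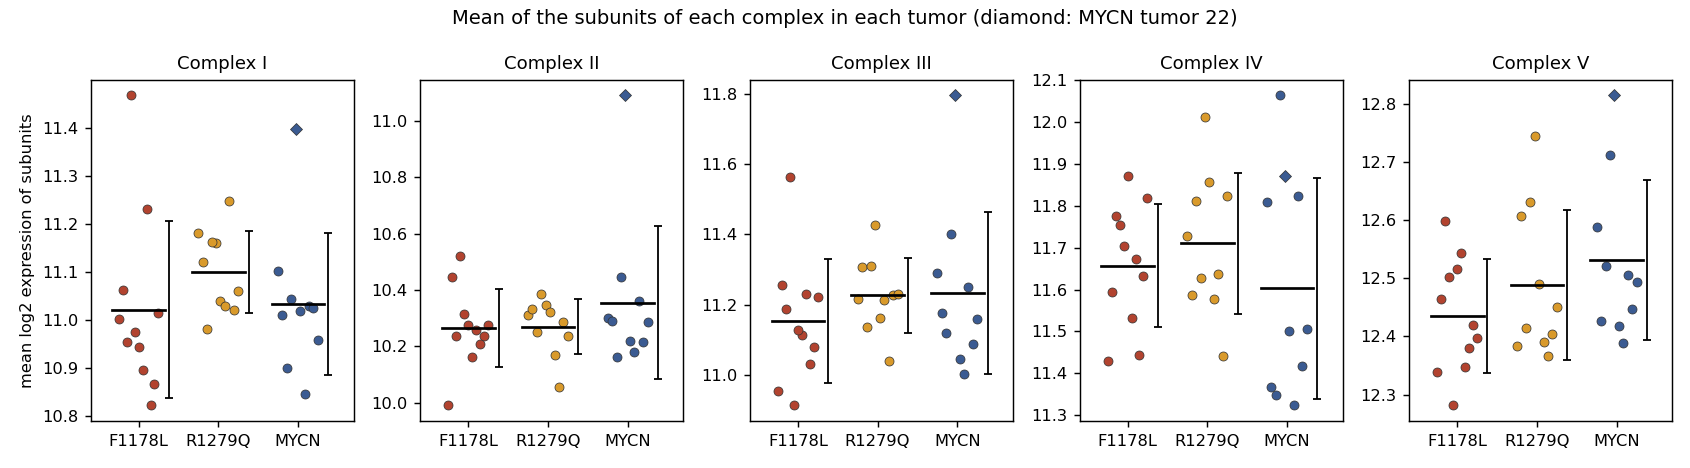
Mean log2 expression of the tested subunits of each complex (y axis), 1 point per tumor, in F1178L, R1279Q and MYCN tumors (x axis), with group means and bars of 1 SD. The complex IV mean also takes in *Cox7a2l* and the tissue isoform *Cox8b*, which ran between 2.24 and 8.12. The groups overlap in every complex. MYCN tumor 22 (diamond) is the highest tumor of all for complexes II, III and V, at 11.09, 11.80 and 12.81.

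In R1279Q against MYCN tumors, *Ndufaf6* and *Sdhc* were lower and *Cox7a2l*, *Ndufa7* and *Ndufb2* were higher. *Ndufaf6* had 7.64, 8.33 and 8.77 in R1279Q tumors and 8.40, 8.93 and 9.19 in MYCN tumors, a fall of 0.53 (SE 0.13, limma adjusted p = 0.00612). The ranges overlapped between 8.40 and 8.77. *Ndufa7* had 11.42, 11.60 and 11.81 in R1279Q tumors and 10.94, 11.25 and 11.60 in MYCN tumors, a rise of 0.32 (SE 0.09, limma adjusted p = 0.0193). *Ndufb2*, an accessory subunit of the membrane arm, had 10.16, 10.35 and 10.69 in R1279Q tumors and 9.76, 10.11 and 10.52 in MYCN tumors, a rise of 0.31 (SE 0.10, limma adjusted p = 0.0283). The call of *Ndufb2* was lost without R1279Q tumors 8, 9 or 16 or MYCN tumors 32 or 34 (adjusted p 0.0504 to 0.0621).

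*Sdhc* had 7.90, 8.19 and 8.36 in R1279Q tumors and 7.95, 8.50 and 9.25 in MYCN tumors. It fell by 0.37 (SE 0.13, limma adjusted p = 0.0468), and 18 of the 31 ways to leave out 1 tumor ended the call, MYCN tumor 22 among them (highest adjusted p = 0.0885, without MYCN tumor 35). Equal medians (0.0666) and quantile normalization (0.0561) ended it as well. Without MYCN tumor 22, 8 members were higher and 1 lower, against 22% of all rows, and without the 10 tumors with other tissue markers none was called by limma, against 2.93% of all rows, with 6 higher and 1 lower at an unadjusted p under 0.05. *Ndufaf7* was among the higher ones without MYCN tumor 22 (0.42, limma adjusted p = 0.0485). Markers of other cell types moved in this comparison as well. Of the endothelial and mural markers 3 of 5 tested were lower, with list levels of 3.32 to 6.62 in R1279Q tumors and 4.41 to 6.21 in MYCN tumors, and of the macrophage markers *Csf1r* and *Ptprc* were lower, 2 of 7, with list levels of 5.51 to 7.94 in R1279Q tumors and 6.45 to 8.01 in MYCN tumors. Of the fat markers *Cidea* was lower (1 of 4 tested), and *Alas2*, the only 1 of 5 listed erythroid genes tested, was lower too. The 2 tested of the 7 listed Schwann cell markers were higher, *Fabp7* among them, with low list levels of 2.75 to 4.47 in R1279Q tumors and 2.58 to 3.34 in MYCN tumors. *Actc1* was the 1 of 3 tested muscle genes called higher, while the median log2 fold change of those 3 was -1.32. Of the neuroblast markers 4 of 9 were higher. The part of all these cell type markers in the changes was not tested.

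Between the mutants, *Ndufaf5* alone passed. It had 6.26, 6.39 and 7.0 in F1178L tumors and 6.57, 7.10 and 7.64 in R1279Q tumors, a fall of 0.60 (SE 0.12, limma adjusted p = 0.00472). Of the R1279Q tumors 8 of 10 lay at 6.98 or above, and of the F1178L tumors 10 of 11 lay at 6.82 or below. The call held without each tumor in turn and without the 10 tumors with other tissue markers. With tumors of 129B6F1 only, 6 F1178L and 3 R1279Q tumors, the difference was -0.74 with a limma adjusted p of 0.356, and none of the 9322 rows was called. *Ndufv2* was next, at -0.28 (95% interval -0.47 to -0.10, limma adjusted p = 0.0503), and *Ndufaf8* stood at -0.54.

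*Ndufa12* and *Cox7a2l* were highest in tumors listed as 129B6F1. *Ndufa12*, an accessory subunit of complex I and chosen here after its values were seen, had the widest spread among the tested subunits of complex I. It had 10.77, 12.51 and 13.82 in F1178L tumors, 10.94, 11.35 and 13.70 in R1279Q tumors and 10.78, 11.24 and 13.60 in MYCN tumors. The 4 F1178L tumors of 129S2 lay between 10.77 and 11.08 and the 5 R1279Q tumors of 129S2 between 11.28 and 11.36. The 6 F1178L tumors of 129B6F1 lay between 11.16 and 13.82 and the 3 R1279Q tumors of 129B6F1 between 10.94 and 13.70. The low ones of 129B6F1 were F1178L tumor 37, at 11.16, and R1279Q tumor 9, at 10.94. In the 18 listed tumors, with genotype in the fit, 129B6F1 exceeded 129S2 by 1.52 (SE 0.34, limma adjusted p = 0.0224). It was the only one of 70 members called, against 4.99% of all rows. MYCN tumor 3, of no listed background, was at 13.60, and the other MYCN tumors reached at most 11.69. Background and age of the mouse cannot be told apart within a genotype.

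*Cox7a2l*, which joins complexes III and IV into a supercomplex, had 8.60, 8.99 and 9.95 in R1279Q tumors and 7.97, 8.43 and 9.46 in MYCN tumors. It rose by 0.59 in R1279Q against MYCN tumors (SE 0.20, limma adjusted p = 0.0406). F1178L tumors had 8.44, 8.86 and 10.16, a difference of 0.41 from MYCN tumors that did not pass (limma adjusted p = 0.0856). The highest values belonged to F1178L tumor 4, R1279Q tumor 5 and R1279Q tumor 8, all of 129B6F1, followed by MYCN tumor 3. The difference from MYCN tumors was 1.09 (limma adjusted p = 0.0454) with the 3 R1279Q tumors of 129B6F1 only and 0.32 (limma adjusted p = 0.246) with the 5 of 129S2 only. In the 18 listed tumors 129B6F1 exceeded 129S2 by 0.51 (SE 0.20, limma adjusted p = 0.140). The call in R1279Q against MYCN tumors was lost without any 1 of 11 tumors (R1279Q tumors 5, 8, 9, 14 and 24 and MYCN tumors 21, 23, 32, 33, 34 and 35), with adjusted p between 0.0507 and 0.0846.

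**Figure D4:**
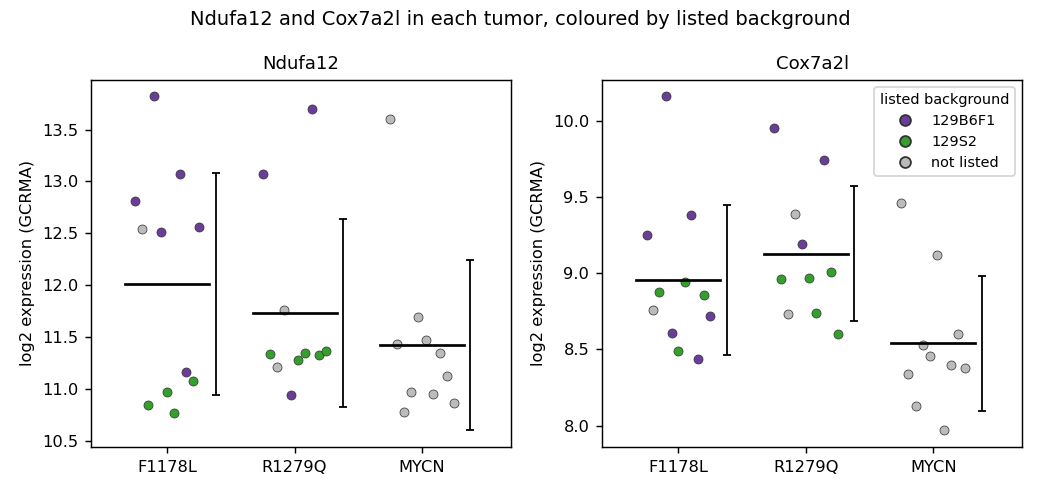
Log2 expression (y axis) of *Ndufa12* and *Cox7a2l*, 1 point per tumor, in F1178L, R1279Q and MYCN tumors (x axis), coloured by listed background, with group means and bars of 1 SD. All 9 tumors of 129S2 lie between 10.77 and 11.36 for *Ndufa12*, and 7 of the 9 tumors of 129B6F1 lie at 12.51 or above.

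The isoforms of complex IV that are restricted to some tissues were mostly below the limit of log2 4. *Cox4i2*, the isoform of lung, and *Ndufa4l2*, known from hypoxic cells, were flat in all tumors (1.99 to 2.08 and 1.70 to 1.78). *Cox8c* did not exceed 2.35 and *Cox7b2* did not exceed 3.72. *Cox6a2*, the heart and muscle partner of *Cox6a1*, was at 5.43 in F1178L tumor 11, 4.69 in F1178L tumor 38, 5.0 in R1279Q tumor 18 and 6.40 in MYCN tumor 3, and at most 3.49 elsewhere. These 4 tumors were among the 7 with *Ckm* above log2 7. *Cox8b*, of muscle and brown fat, was highest in MYCN tumor 35, at 8.12, where *Ucp1* was at 9.67. *Cox7a1*, the heart and muscle partner of *Cox7a2*, was highest in MYCN tumor 22, at 6.72, and next in MYCN tumor 35, at 6.40. Their ubiquitous partners *Cox7a2* and *Cox8a* were at 0.02 (95% interval -0.13 to 0.17) and 0.11 (-0.17 to 0.38) in F1178L against MYCN tumors, and *Cox6b1* was at 0.02 (-0.15 to 0.19). *Cox6b2*, the testis partner of *Cox6b1*, was above 4 in F1178L tumors 28, 29 and 30 and R1279Q tumor 17, between 4.14 and 4.84, and at most 3.77 in every other tumor.

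**Figure D5:**
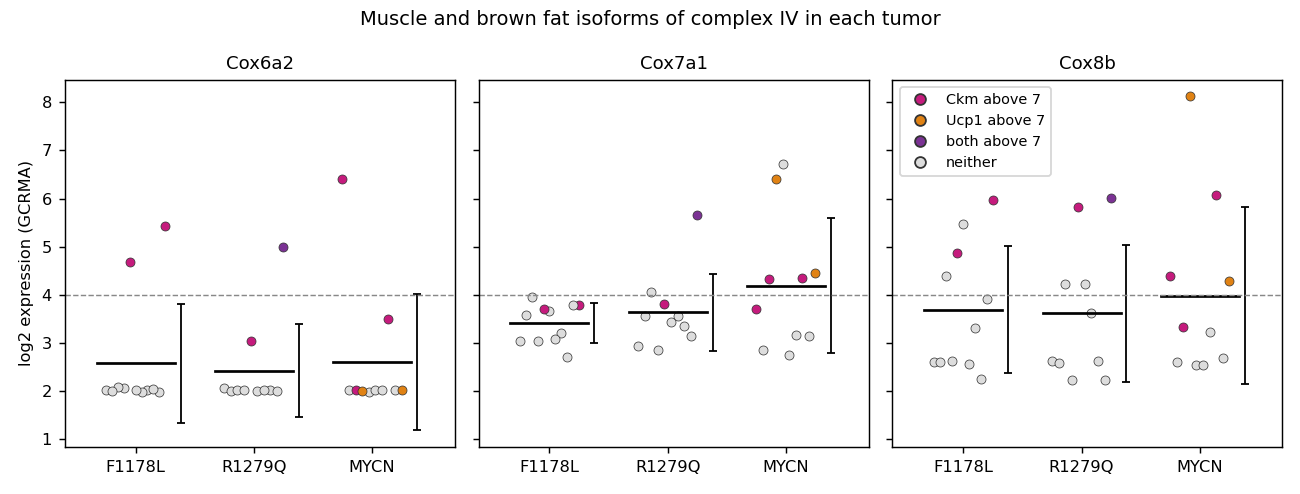
Log2 expression (y axis) of *Cox6a2*, *Cox7a1* and *Cox8b*, 1 point per tumor, in F1178L, R1279Q and MYCN tumors (x axis). Colours mark tumors with *Ckm* or *Ucp1* above log2 7, the dashed line is log2 4, and lines and bars are means and 1 SD. All 4 tumors above the line for *Cox6a2* had *Ckm* above log2 7.

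Genes around the complexes were counted in 4 lists. Of 26 tested assembly factors whose names lie outside the rule, 10 were lower and 1 higher in F1178L than in MYCN tumors, 42.3% called, against 46.5% of all rows. *Timmdc1*, a membrane assembly factor of complex I, had 6.82, 7.50 and 8.46 in F1178L tumors and 7.41, 8.51 and 8.95 in MYCN tumors, a fall of 0.88 (SE 0.22, limma adjusted p = 0.00202). It differed with the listed background, at 6.82 to 7.50 in F1178L tumors of 129B6F1 and 7.75 to 8.46 in those of 129S2, and at 7.08 to 7.95 in R1279Q tumors of 129B6F1 and 8.37 to 8.74 in those of 129S2. Against all MYCN tumors the F1178L difference was -1.22 with 129B6F1 only (limma adjusted p = 0.000459) and -0.35 with 129S2 only (limma adjusted p = 0.164). *Cox17*, a copper chaperone of complex IV, had 8.87, 9.71 and 10.34 in F1178L tumors and 10.00, 10.48 and 10.77 in MYCN tumors, a fall of 0.79 (SE 0.17, limma adjusted p = 0.000387). Its difference was -0.54 with F1178L tumors of 129B6F1 only and -1.26 with those of 129S2 only. The ranges of both genes overlapped between the groups. *Sco1*, another copper chaperone, fell by 0.65 (limma adjusted p = 0.00207), and *Ttc19*, of complex III, was the one that rose, by 1.0 (SE 0.16, limma adjusted p = 1.38e-05). Without the 10 tumors with other tissue markers 5 were lower and 1 higher, against 32.2% of all rows. Between F1178L and R1279Q tumors 3 of the 26 were lower (*Lrpprc*, *Sco1* and *Tmem70*), 11.5% called, against 8.53% of all rows. In R1279Q against MYCN tumors *Ttc19* was the one called, and was higher. This is 3.85% called, against 17.9% of all rows.

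Of 15 tested regulators of mitochondrial biogenesis and of mitochondrial DNA, 10 were lower and 1 higher in F1178L against MYCN tumors. This is 73.3% called, against 46.5% of all rows (26.4% lower), with a median log2 fold change of -0.63. *Tfam*, which packages mitochondrial DNA, had 7.59, 8.0 and 8.61 in F1178L tumors and 8.34, 8.55 and 8.91 in MYCN tumors, a fall of 0.61 (SE 0.10, limma adjusted p = 2.46e-05). *Pprc1*, a coactivator of respiratory genes, had 6.99, 7.94 and 8.32 in F1178L tumors and 8.13, 9.04 and 9.37 in MYCN tumors, a fall of 1.07 (SE 0.17, limma adjusted p = 1.34e-05). *Twnk*, the mitochondrial DNA helicase, fell by 0.96 (SE 0.19, limma adjusted p = 0.000161). The ranges of *Tfam* and *Pprc1* overlapped at their edges. *Ppargc1a*, a coactivator known from brown fat and muscle, was the one called higher, at 3.62, 4.58 and 7.27 in F1178L tumors and 2.58, 2.79 and 8.76 in MYCN tumors, where 1 of 10 exceeded log2 4. Its call was lost with F1178L tumors of 129B6F1 only (1.18, limma adjusted p = 0.303). In R1279Q against MYCN tumors 2 regulators were lower (*Pprc1* and *Esrra*), 13.3% called, against 17.9% of all rows. Between F1178L and R1279Q tumors 5 were lower (*Gabpa*, *Mterf3*, *Ssbp1*, *Tfam* and *Twnk*), 33.3% called, against 8.53% of all rows. Without the 10 tumors with other tissue markers 8 were lower and 1 higher in F1178L against MYCN tumors, 60% called, against 32.2% of all rows.

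Among 17 enzymes of pyruvate dehydrogenase and the tricarboxylic acid cycle, which supply NADH and succinate, 4 were lower (*Idh2*, *Suclg1*, *Dlat* and *Dlst*) and *Idh3a* was higher in F1178L than in MYCN tumors, 29.4% called, against 46.5% of all rows. *Idh2*, which makes NADPH in mitochondria, had 9.14, 9.64 and 10.30 in F1178L tumors and 10.37, 10.75 and 12.20 in MYCN tumors. These groups did not overlap, and it fell by 1.17 (SE 0.18, limma adjusted p = 5.36e-06). R1279Q tumors lay between, at 9.81, 10.21 and 10.75. *Idh2* was lower in R1279Q than in MYCN tumors (-0.60, limma adjusted p = 0.0198) and in F1178L than in R1279Q tumors (-0.57, limma adjusted p = 0.0408). Of 14 tested genes of electron carriers, *Coq5*, of ubiquinone synthesis (-0.50), and *Cyc1*, the cytochrome c1 of complex III (-0.31), were lower in F1178L than in MYCN tumors, 14.3% called. With F1178L tumors of 129B6F1 only, neither passed (-0.47 for *Coq5* and -0.30 for *Cyc1*). Without the 10 tumors with other tissue markers *Idh2* (-0.96) and *Idh3a* (0.78) kept their calls, *Pdha1*, of pyruvate dehydrogenase, was called higher (0.58, limma adjusted p = 0.00478), and no electron carrier gene was called by limma, and none at an unadjusted p under 0.05 either.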

How the data were processed

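Total RNA of each tumor was hybridized by the authors to Affymetrix Mouse Genome arrays. The deposited values are log2 expression values that the authors normalized by GCRMA, with probes regrouped per Entrez gene through Brainarray annotations, and they ran between 1.31 and 15.46 in 31 tumors. GCRMA leaves unexpressed genes at a floor near log2 2, so low values carry no fold change. All 31 columns were matched to a tumor through the titles, and 0 columns were left unmapped. Scanner files and array dates were not analysed here, and the number of arrays limits the precision.

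Rows were named by the platform annotation, or through the Entrez ID in the RefSeq gene table (GRCm38.p6) where it gave no symbol. The values of 1 member are not reported here. The limma test (version 3.58.1, R 4.3.3) was run on every row that exceeded log2 4 in 10 or more tumors, in 1 fit of the 3 groups with eBayes. Tests were two-sided, and p-values were Benjamini-Hochberg adjusted over all 9322 rows, with a threshold of 0.05. The groups are those of the sample titles. The fit was tested on simulated data. Figures were drawn with matplotlib 3.10.9.

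Named with values were, in each comparison, up to 6 rises and 6 falls among the members called with a higher group mean of at least log2 6, the core subunits, the isoform sets, and up to 4 genes of each of 4 surrounding lists, plus any gene needed to account for a count of 5 or fewer. *Ndufa12* and the tumors with tissue markers were picked after their values were seen. The members and lists were chosen with earlier results of these data known. Alternatives were other filters, scalings, array weights, the methods' t-test, each tumor left out, 1 background only and covariates. Leaving out the tumors with *Ckm*, *Ucp1* or *Slc34a1* above log2 7 and the background term were added after seeing the data. Promoter windows are from RefSeq (GRCm38.p6), the first listed where a gene has several.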

Additional observations from a re-analysis of the deposited data

Results flagged for a closer look

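A single tumor far from the rest of its group, by Dixon's test at the 95% level, was found in 23 of the 140 groups tested. The groups tested were those of 70 members in the R1279Q and in the MYCN tumors, and the 11 F1178L tumors were not tested. Chance marks about 1 in 20 groups. In 16 of the 23 the tumor was MYCN tumor 22, and it was high, for subunits of every complex. In complex I these were *Ndufv1* (11.15), *Ndufs8* (11.60), *Ndufa3* (12.02), *Ndufa6* (11.22), *Ndufa13* (12.46), *Ndufb8* (12.18) and *Ndufb9* (12.68). In complex II they were *Sdha* (11.45) and *Sdhb* (12.39), and in complex III *Uqcrc2* (12.78) and *Uqcrq* (11.40). In complex IV they were *Cox4i1* (13.55), *Cox6b1* (13.71) and *Ndufa4* (12.78), and in complex V *Atp5a1* (13.37) and *Atp5j* (12.81). This is the tumor with kidney transcripts. The nearest other MYCN tumor was at 13.08 for *Cox4i1* and at 12.03 for *Ndufb9*.

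MYCN tumor 3 was high for *Ndufa12* (13.60) and low for *Ndufa5* (11.07). R1279Q tumor 8 was low for *Uqcrfs1* (10.91) and *Sdhd* (10.31). R1279Q tumor 9 was high for *Ndufc1* (12.31) and *Atp5e* (13.80), and R1279Q tumor 5 was high for *Ndufa2* (12.18).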

How the results depend on the processing

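The values reported rest on 9322 tested rows and all 31 tumors. Counts are given as members higher and lower. Array weights gave 7 and 17 in F1178L against MYCN tumors, 13 and 3 in R1279Q against MYCN tumors, and 1 and 11 in F1178L against R1279Q tumors, while 62.5%, 37.3% and 32.6% of all rows were called. With mutant tumors of 129S2 only, 4 and 15 were called in F1178L against MYCN tumors, 0 and 2 in R1279Q against MYCN tumors, and 1 and 6 in F1178L against R1279Q tumors (49.8%, 19.7% and 21.5% of all rows). With 129B6F1 only, 0 and 3 were called in F1178L against MYCN tumors (23.7% of all rows) and 0 were lower in F1178L against R1279Q tumors, where limma called no row at all. The methods' t-test at an unadjusted p under 0.05 gave 10 and 3 in R1279Q against MYCN tumors (33.7% of all rows), and 1 and 10 in F1178L against R1279Q tumors (25%). After Benjamini-Hochberg adjustment it gave 2 and 11, 3 and 2, and 0 and 1 in the 3 comparisons. Without the tumors with other tissue markers, 3 were lower in F1178L against MYCN tumors and 0 were higher and 0 lower in R1279Q against MYCN tumors. Structural subunits alone gave 5 lower in F1178L against MYCN, 1 lower in R1279Q against MYCN and 0 lower in F1178L against R1279Q tumors. In R1279Q against MYCN tumors 1 was lower with no filter, with quantile normalization and with equal medians. In F1178L against R1279Q tumors 2 were lower with a filter at log2 6 and with a trended robust fit, and 3 with background as covariate.

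With each tumor left out in turn, F1178L against MYCN tumors gave 2 to 6 higher and 7 to 13 lower, R1279Q against MYCN tumors 1 to 8 higher and 1 to 4 lower, and F1178L against R1279Q tumors 0 higher and 1 to 4 lower. Both highest counts of higher members, 6 and 8, came without MYCN tumor 22. For the 18 gene results called, 656 of 740 alternative values kept direction and threshold, 84 kept only the direction, and 0 turned round. No paired analysis was possible because the tumor numbers are unique and shared by no 2 groups.

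The number of arrays, the unlisted background of the MYCN tumors and the tissue around some tumors limit these comparisons. The chromosome gains and losses that the study recorded in some tumors of mixed background were not tested.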
